A study of Mus musculus with 117 samples.

Results

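Astrocyte RNA bound to ribosomes was compared between the mouse spinal cord 5 days (5 d) after spinal cord injury (SCI) and the uninjured spinal cord. The comparison was chosen by sample title and took the 4 astrocyte libraries labelled Aldh1l1 5d SCI and the 4 labelled Aldh1l1 Uninjured, 8 of the 117 libraries of the series. All 8 came from mice labelled female with the genotype Aldh1l1-CreERT2-RiboTag. The mice were young adults by the study's methods. RiboTag mice carry a ribosomal protein that gains a hemagglutinin tag once Cre recombinase has acted, and here Cre was driven by the promoter of Aldh1l1, a folate enzyme gene of astrocytes, and was switched on by tamoxifen. Tagged ribosomes were pulled down from homogenized tissue and their RNA was sequenced, so a library holds the RNA of every cell in which Cre had acted plus whatever other RNA came down with the beads. Injured cord was a short stretch on either side of the centre of a complete crush, and uninjured cord was the matching region. A flow-through library, the RNA left after the pulldown, was sequenced under each number in both groups. That numbered 4 at 5 d is labelled male while its astrocyte library is labelled female, but it held 4702 counts of Xist and at most 4 of any of 4 Y-linked genes, as the libraries labelled female did, so its sex label went against its data. Nothing in the labels names the mice behind the libraries beyond a number, so p-values measure the spread between these libraries.

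Astrocytes clear glutamate and GABA from synapses, buffer potassium, move water, feed lipids and lactate to neurons and seldom divide in the healthy adult cord. After tissue damage they become reactive, a state in which they raise intermediate filaments such as vimentin, and those next to the lesion can re-enter the cell cycle. In the first week after a crush the lesion also fills with blood-borne monocytes, macrophages and dividing microglia, which engulf debris and make many lysosomal and immune transcripts.

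The libraries were deep. Total counts ran from 95831369 to 123505722 in the uninjured libraries and from 97695228 to 112941084 at 5 d. Levels are given as CPM, counts scaled by the effective size of each library, and do not correct for gene length, so they are compared between libraries and not between genes. Correlations of log2 CPM lay between 0.969 and 0.981 among uninjured libraries and between 0.987 and 0.989 among 5 d libraries, and every pair of replicates differed by more than sampling noise. The first principal component of the 8 libraries held 80.8% of the variance and separated the groups.

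The labelled cell type was checked against 12 textbook astrocyte markers, which were far higher in the pulldown than in the flow-through in both groups. Summed over the list and scaled together with the flow-through libraries, they stood at 51436 to 61393 CPM in uninjured and 24437 to 37591 CPM in 5 d astrocyte libraries, against 2211.6 to 2711.5 CPM and 2646.3 to 3807.6 CPM in the flow-through. Markers of other cells were present too, and they moved. A list of 10 genes shared by leukocytes rose from 27.7 to 54.7 CPM in uninjured to 3952.5 to 4999.1 CPM in 5 d astrocyte libraries, and 12 macrophage and monocyte markers from 43.3 to 91 CPM to 13393 to 17395 CPM. In the uninjured flow-through the leukocyte list summed to 188.33 to 201.09 CPM, above the pulldown, and the macrophage list to 82.2 to 130.2 CPM. The same lists reached 2696.4 to 3493.2 CPM and 2651.7 to 3479.6 CPM in the flow-through at 5 d. At 5 d both sums were therefore higher in the pulldown than in the RNA left behind. That of 8 microglia markers was lower, at 1095.2 to 1213.7 CPM in the pulldown and 1543.7 to 1647.1 CPM in the flow-through at 5 d. Each sum is weighted towards its most abundant members, at 5 d the filament gene Gfap in the astrocyte list and the lysozyme gene Lyz2 in the macrophage list. Neuronal markers stood at 545 to 653.4 CPM in uninjured and 87.1 to 110.1 CPM in 5 d astrocyte libraries. The uninjured libraries were not uniform in oligodendrocyte markers, which summed to 7928.8 and 8134.1 CPM in replicates 1 and 2 and to 4201.4 and 3525.3 CPM in replicates 3 and 4. Schwann cell markers were uneven too, at 269.15 to 1236.3 CPM in uninjured and 36.8 to 173 CPM in 5 d astrocyte libraries. The part of these other cells in the results that follow was not tested, and in bulk RNA fewer cells of a type and less RNA per cell cannot be told apart.

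**Figure D1:**
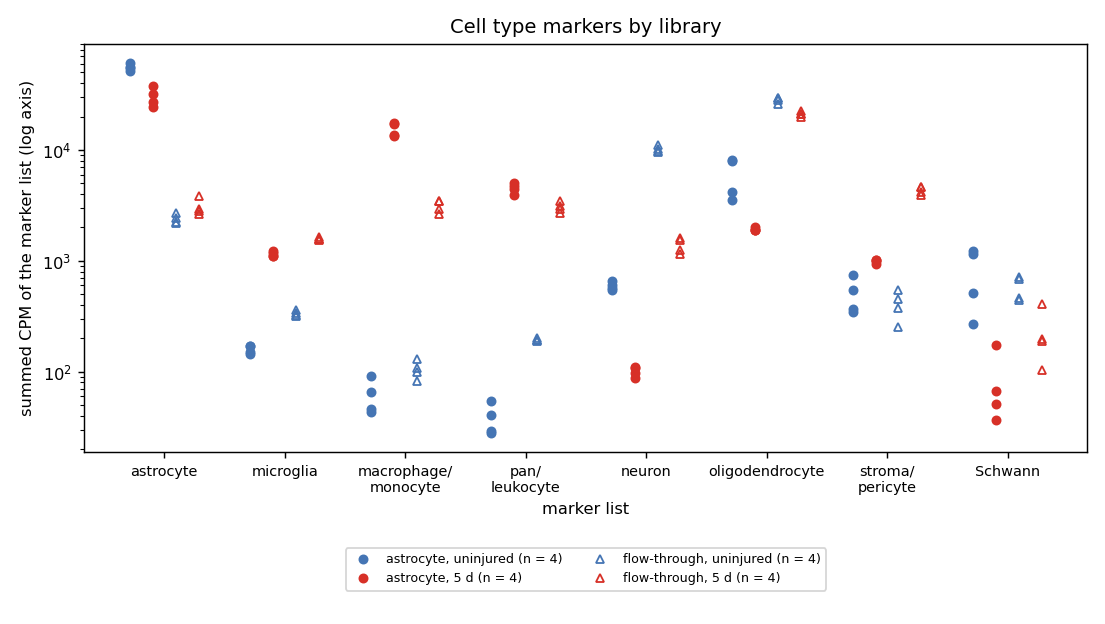
Summed CPM of 8 cell type marker lists on a log axis, with 1 point per library; circles are astrocyte (pulldown) libraries, triangles flow-through libraries, blue uninjured and red 5 d (n = 4 each). Leukocyte and macrophage lists were low in uninjured and high in 5 d libraries of both kinds, and astrocyte markers were far higher in the pulldown than in the flow-through.

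Most genes that could be measured changed. Of 18205 genes tested with edgeR at a false discovery rate (FDR) below 0.01, 5230 were higher at 5 d, 28.7% of the genes tested, and 5118 were lower, 28.1%, which makes 56.8% called in either direction. The median log2 fold change of all genes tested was -0.02 after TMM scaling, which centres the changes. In all, 1894 of the genes that rose did so by over 4-fold and 913 by over 16-fold, while 849 fell by over 4-fold and 45 by over 16-fold. The 4 libraries of each group did not overlap for 32.2% of genes with 5 d above and for 31.1% with 5 d below.

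Among genes of at least 1 CPM in both groups whose libraries did not overlap between groups, the 10 largest rises included genes of lysosomes and phagocytosis. Gpnmb, on chromosome 6 at 49036518 to 49058182 (GRCm38), codes for a membrane glycoprotein of phagosomes. Its CPM in the uninjured libraries were 16.2, 13.2, 17.2 and 14.1 and at 5 d 7373, 6954, 5910.2 and 6002. That is a log2 fold change of 8.76 ± 0.52 (SE, edgeR adjusted p = 1.71e-13). Spp1, on chromosome 5 at 104435111 to 104441053, codes for the secreted adhesion protein osteopontin. It read 122, 146, 46.4 and 27.1 CPM in uninjured and 22749, 23611, 24001 and 18854 CPM at 5 d, a log2 fold change of 8.03 ± 0.48. No other gene gained as much CPM. Cd68, a lysosomal membrane protein used to mark macrophages, went from 2.76, 2.64, 2.39 and 2.66 CPM to 958, 1089, 904 and 800.3 CPM. Hmox1, the heme oxygenase that breaks down heme, went from 16.4, 15, 14.6 and 10.9 CPM to 2209, 3102, 3386 and 2275 CPM, a log2 fold change of 7.59 ± 0.29. The other genes among the 10 largest rises were the lysosomal protease gene Ctss (log2 8.42), the lipid receptor gene Trem2 (8.27), the lysozyme gene Lyz2 (8.18), the scavenger receptor gene Stab1 (7.88), the complement gene C1qb (7.65) and Mpeg1, a pore-forming gene of macrophages (7.63). That every 5 d library lay above every uninjured one for these 10 genes was fixed by the way they were chosen.

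The 10 largest falls, under the same limits of 1 CPM in both groups and libraries that did not overlap, included genes of astrocytes and neurons. Myoc, on chromosome 1 at 162639150 to 162649694, codes for the secreted protein myocilin. Its CPM were 367, 377, 314 and 275 in uninjured and 7.09, 3.58, 4.06 and 12.6 at 5 d, a log2 fold change of -5.61 ± 0.47 (edgeR adjusted p = 1.57e-10). Hsd11b1, which regenerates active glucocorticoid, went from 176, 171, 209 and 213 CPM to 7.87, 5.58, 5.75 and 8.99 CPM. Itih3, an inhibitor family member that binds hyaluronan, went from 953, 954, 1245 and 1357 CPM to 61.4, 40.6, 42.9 and 81.4 CPM. The citrate transporter gene Slc13a5 fell by 4.41 on the log2 scale. Unc13a, which primes synaptic vesicles, and Sptb, a spectrin gene, differed among the uninjured libraries: Unc13a read 59, 32.1, 150.3 and 234 CPM and Sptb 97.8, 57.9, 322 and 477 CPM. The libraries numbered 3 and 4 were the high ones for both, and at 5 d Unc13a stood at 3.98 to 5.44 CPM and Sptb at 6.71 to 28.6 CPM. Cdr1, the mitochondrial gene ND5, the uncharacterized gene 2210416O15Rik and the sodium channel subunit gene Scn4b completed these 10 falls, with log2 fold changes of -4.60, -3.98, -3.88 and -3.88.

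A further 196 genes that rose had at most 3 counts in every uninjured library. The 6 with the highest 5 d level were Mcoln3, a lysosomal cation channel gene, the cytokine genes Osm and Ccl4, and Ms4a14, Raet1d and Phf11b. Against a floor of 3 counts in each uninjured library, Mcoln3 was at least 377-fold higher at 5 d, Osm at least 261-fold and Ccl4 at least 169-fold. The bound was 117-fold for Ms4a14, 111-fold for Raet1d and 91-fold for Phf11b, at 5 d levels of only 2.72 to 3.5 CPM. In absolute CPM the largest gains after Spp1 were those of the lysosomal protease gene Ctsd (765 ± 28.4 to 17367 ± 1619, SD, n = 4), the lipid carrier gene Apoe (17308 ± 1726 to 33185 ± 1575), Lyz2 and the protease gene Ctsb (1099.5 ± 7.95 to 11879 ± 858). Apoe was high before injury and rose by 0.94 on the log2 scale, less than 2-fold.

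The machinery of mature astrocytes fell in nearly every member. None of the 12 astrocyte markers rose (1 without 5 d replicate 3) and 11 fell, with a median log2 fold change of -2.02. The exception was Gfap, the astrocyte filament gene. It read 15444, 17732, 16402 and 14253 CPM in uninjured and 19466, 17747, 15735 and 24554 CPM at 5 d (log2 0.28 ± 0.12, edgeR adjusted p = 0.036), so the groups overlapped. Slc1a2, on chromosome 2 at 102658239 to 102790784, codes for the main glutamate transporter. It went from 11176, 11969, 16115 and 14164 CPM to 2286, 1670.1, 1575 and 2163 CPM, a log2 fold change of -2.80 ± 0.14. Aldh1l1, whose promoter drives the Cre, went from a mean of 411 to 257 CPM (log2 -0.68).

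Of 11 genes for uptake and conversion of transmitters, 10 fell and none rose, with a median of -2.36. The GABA transporter gene Slc6a11 fell the most (4286 to 394 CPM, log2 -3.44) and the amino acid transporter gene Slc38a3 the least (406 to 159 CPM, log2 -1.35). Glul, which turns glutamate into glutamine, had 3489, 3605, 4334 and 4619.8 CPM in uninjured and 808, 726, 780.4 and 867 CPM at 5 d. Among 13 genes for water, potassium, bicarbonate and gap junctions, 12 fell and 1 rose, with a median of -2.07. Atp1b2, a sodium pump subunit gene, fell from 15771 ± 2206 to 3744 ± 576 CPM (SD, n = 4). Kcnj10, the Kir4.1 potassium channel gene, fell from 6163 ± 847 to 1335 ± 155 CPM. The water channel gene Aqp4 fell less, by 0.75 on the log2 scale. Trpv4, a calcium channel gene at 0.32 CPM in uninjured, was the member that rose, to 6.15 CPM.

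Genes for contacts between astrocytes and synapses moved both ways. Of 22, 13 fell and 4 rose, with a median of -1.21. Sparcl1, or hevin, which promotes synapse formation, had 12869, 15146, 16968 and 16305 CPM in uninjured and 1546, 1118, 883 and 1531 CPM at 5 d (log2 -3.59 ± 0.17). Grin2c, an NMDA receptor subunit gene, fell the most (log2 -3.65). Thbs1, a thrombospondin that promotes synapse formation and acts in wounds, rose from 4.67 to 900.3 CPM (log2 7.59).

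Transcription factors of astrocyte identity followed the markers down. Of 24 tested, 18 fell and 2 rose, the median being -1.09. Sox9, Nfia and Nfib, which install and maintain the astrocyte program, fell by 0.99, 1.12 and 1.07 on the log2 scale, and Hes5, a Notch target, went from 4.26 to 0.20 CPM (log2 -4.40). Id1 and Id3, targets of BMP signalling, were the 2 that rose (log2 0.90 and 0.64). Of 29 genes for growth factor, Notch, Wnt and hedgehog signalling, 22 fell and 4 rose, with a median of -1.28. Ptch1 and Gli1, a receptor and a transcription factor of the hedgehog pathway that are also its targets, fell by 3.11 and 2.95. Fgfr3 went from 1382 to 326 CPM and the BDNF receptor gene Ntrk2 from 1773 to 377 CPM. Tgfbr2, Tgfbr1, Osmr and Met rose, by 3.36, 2.72, 2.66 and 0.57, the first pair being the receptors for TGF-beta and Osmr that for oncostatin M.

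Cholesterol synthesis, which feeds lipid to membranes and to neurons, fell in nearly every member. Of 24 genes 23 fell and none rose (1 without uninjured replicate 1 or 5 d replicate 1), with a median of -2.09. Insig1, on chromosome 5 at 28071412 to 28078662, senses sterols in the endoplasmic reticulum. It read 321, 303.8, 322 and 316 CPM in uninjured and 28, 25.1, 25.6 and 29.3 CPM at 5 d (log2 -3.55 ± 0.14, edgeR adjusted p = 2.54e-18), and the libraries of each group lay close together. Hmgcs1, an early enzyme of the pathway, went from 868, 739, 743 and 609 CPM to 119, 101, 102 and 124 CPM. Srebf2, the transcription factor of the pathway, fell by 1.84. Ebp was the member not called (39.6 to 48.6 CPM, log2 0.29).

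Other metabolic lists were counted in the same way. Of 15 fatty acid oxidation genes 12 fell and none rose (1 without uninjured replicate 4), with a median of -0.49, led by the regulators Ppara (log2 -2.46) and Ppargc1a (-1.77). Of 19 genes for glycolysis and lactate, 10 fell and 6 rose, with a median of -0.23. Aldoc, the astrocyte aldolase, fell from 11728 ± 1189.7 to 2152 ± 503 CPM (SD, n = 4), while the lactate exporter gene Slc16a3 rose from 1.04 to 72 CPM, Hk2 from 3.42 to 46 CPM and Ldha from 291 to 685.9 CPM. Of 8 glycogen genes 5 fell and 1 rose (2 without uninjured replicate 3). Pygm, the muscle and astrocyte glycogen phosphorylase, fell from 1165 to 219 CPM and Pygl, the liver form, rose from 18 to 61.7 CPM.

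Cell cycle genes rose. Of 26 genes of the G1 to S transition and DNA replication 24 rose and none fell, with a median of 2.29. Of 31 genes of mitosis and cytokinesis 30 rose and none fell, with a median of 4.79. Top2a, the topoisomerase that untangles replicated DNA, had 3.8, 1.38, 0.734 and 1.32 CPM in uninjured and 82.9, 95.3, 95.6 and 75 CPM at 5 d (log2 5.59 ± 0.42). Cdk1, the kinase that starts mitosis, read 1.77, 0.93, 0.172 and 0.393 CPM and then 43.5, 51.4, 56.1 and 42.8 CPM. Prc1, which bundles the microtubules of the dividing cell, read 0.775, 1.05, 0.879 and 1.72 CPM and then 73.6, 89.6, 86.4 and 73.6 CPM. The groups did not overlap for any of these genes, and the uninjured libraries were the low ones. Ccnd1, the cyclin of early G1, rose the most in its list (6.8 to 333 CPM, log2 5.61), while Ccnd2 and Ccnd3 were not called (124 to 136 and 101 to 95.2 CPM). Anln, which is also made by myelinating oligodendrocytes, was the mitosis gene not called (25.7 to 21.5 CPM). Of 10 inhibitors of the cycle, 5 rose and 3 fell: Cdkn2a and Cdkn3 rose by 5.20 and 4.81, and Cdkn1b and Cdkn1c, which hold cells at rest, fell by 1.07 and 1.42. The cell cycle is shared by every dividing cell, and the flow-through rose too, with medians of 2.39 for the first list and 4.44 for mitosis.

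Many mitotic genes are known to share a pair of promoter elements, so the promoters of the lists were read from RefSeq (GRCm38.p6), 250 bases before to 50 after the start site. The cell cycle homology region (CHR) was searched as TTTGAA and the CCAAT box as CCAAT, on both strands, and matches that shared a base were counted for both. Of the 31 mitosis genes 24 had a promoter in the table. Of these 70.8% held the CHR, 79.2% the CCAAT box and 66.7% both, against 15.1%, 42.3% and 6.12% of the 13590 tested genes with a promoter. For the G1 to S list, with 22 promoters, the shares were 18.2%, 68.2% and 18.2%. The 3 promoters below belong to mitosis genes with large changes and hold both motifs, and they were chosen for these traits. They lie at chr7:80294226-80294525 (Prc1, plus strand), chr10:69352863-69353162 (Cdk1, minus strand) and chr7:122159185-122159484 (Plk1, plus strand), and capitals mark both motifs on either strand.
Prc1: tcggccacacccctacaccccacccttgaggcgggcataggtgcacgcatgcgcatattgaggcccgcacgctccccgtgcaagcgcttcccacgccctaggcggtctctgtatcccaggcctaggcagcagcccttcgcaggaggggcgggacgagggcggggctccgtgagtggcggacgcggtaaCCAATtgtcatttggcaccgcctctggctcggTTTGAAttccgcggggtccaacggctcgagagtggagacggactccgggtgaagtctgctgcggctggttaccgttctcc
Cdk1: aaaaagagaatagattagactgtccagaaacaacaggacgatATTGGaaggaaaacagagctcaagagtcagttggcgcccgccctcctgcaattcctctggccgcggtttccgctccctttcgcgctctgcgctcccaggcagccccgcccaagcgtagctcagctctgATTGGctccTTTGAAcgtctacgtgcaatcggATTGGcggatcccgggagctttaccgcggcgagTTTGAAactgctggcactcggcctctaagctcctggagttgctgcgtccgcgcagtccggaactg
Plk1: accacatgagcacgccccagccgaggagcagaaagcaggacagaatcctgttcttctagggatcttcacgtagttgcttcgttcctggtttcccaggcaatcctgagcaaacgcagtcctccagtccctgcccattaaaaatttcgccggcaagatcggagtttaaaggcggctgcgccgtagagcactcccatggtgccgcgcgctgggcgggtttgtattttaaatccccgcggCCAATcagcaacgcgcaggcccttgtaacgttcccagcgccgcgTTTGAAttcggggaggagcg

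For cholesterol genes the sterol element was searched as TCACNCCAC, on both strands. It was in 1 of the 18 promoters found for the list, 5.56%, against 1.47% of tested genes, while the CCAAT box was in 88.9%. The promoter with the element was that of Hmgcs1 at chr13:119690101-119690400 on the plus strand, shown with the element in capitals because it was the only one found in the list.
Hmgcs1: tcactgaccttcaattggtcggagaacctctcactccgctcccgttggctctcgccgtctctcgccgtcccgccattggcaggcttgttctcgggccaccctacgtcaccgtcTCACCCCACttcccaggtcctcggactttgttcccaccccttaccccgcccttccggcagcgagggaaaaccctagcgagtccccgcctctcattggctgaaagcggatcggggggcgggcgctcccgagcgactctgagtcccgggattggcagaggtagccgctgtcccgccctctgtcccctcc
In the 3 mitosis promoters TTTGAA lay within a short distance of a CCAAT box, as the capitals show. That distance was not compared with other promoters. In the promoter of Hmgcs1 the sterol element lay upstream of the start site. A match is a stretch of letters and was not measured as a binding site here.

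Genes that define reactive astrocytes rose, Gfap apart. Of 28 tested 24 rose and none fell, with a median of 2.91. Vim, the vimentin gene, had 184, 194.3, 138 and 112 CPM in uninjured and 3007, 3221, 3399 and 3755 CPM at 5 d (log2 4.41 ± 0.16, edgeR adjusted p = 1.04e-18). Nes, another filament gene, rose from 12 ± 5.09 to 197 ± 42.4 CPM and Timp1, an inhibitor of matrix proteases, from 4.66 ± 0.94 to 326 ± 36.6 CPM (SD, n = 4). Lgals3, the galectin that macrophages also make, went from 23 to 1681 CPM. Tgm1, a crosslinking enzyme, rose the most, from 0.232, 0.551, 0.399 and 0.474 CPM to 166, 241, 183 and 184 CPM (log2 8.87 ± 0.24). Pdpn rose the least of those called (64 to 90.3 CPM), and besides Gfap the genes Synm, Cryab and Cp were not called (log2 0.41, 0.33 and 0.32).

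Transcription factors of injury rose in 23 of 27 cases and none fell, with a median of 1.78. Runx1 rose the most (0.42 to 32.3 CPM, log2 6.25), followed by Batf (6.20) and Fosl1 (4.86); both Runx1 and Batf are also made by leukocytes. Atf3, an early marker of cell stress, went from 2.03 to 57.8 CPM, Junb from 5.66 to 121 CPM and Socs3, the feedback inhibitor of cytokine receptors, from 1.98 to 38 CPM. Stat3, the factor of the gp130 receptors, rose little (122 to 154 CPM, log2 0.34), and Jund was not called (224 to 199 CPM).

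Genes for engulfing and digesting material rose strongly beside the leukocyte markers described above. Of 28, 23 rose and 3 fell, with a median of 2.57. Msr1, a scavenger receptor, led with 0.271, 0.503, 0.181 and 0.115 CPM in uninjured and 207, 193.6, 234 and 198 CPM at 5 d (log2 9.57 ± 0.54), and the 6 cathepsin genes of the list rose by between 2.29 for Ctsl and 8.42 for Ctss. Abca1 and Abcg1, which export cholesterol, rose by 2.17 and 4.31. The 3 that fell were receptors and an adaptor of phagocytosis: Axl (476 to 310.1 CPM), Megf10 (84 to 35.3 CPM) and Gulp1 (9.12 to 3.06 CPM). Mertk, another such receptor, rose from 28.5 to 70 CPM. All 10 leukocyte and all 12 macrophage markers rose too, with medians of 6.73 and 5.69. Ptprc, the CD45 gene by which leukocytes are defined, had 2.29, 1.46, 1.12 and 0.762 CPM in uninjured and 53.4, 62.1, 50.7 and 48.5 CPM at 5 d. Arg1, an arginine-degrading enzyme of macrophages, went from 0.252, 0.475, 0.299 and 0.589 CPM to 412, 892, 928 and 618 CPM. Among 8 microglia markers 6 rose and Sall1, a transcription factor used to mark microglia, fell from a mean of 87 to 34.5 CPM. Of 12 neutrophil markers 3 rose and 2 fell; the number that fell was 0 without uninjured replicate 1, 5 d replicate 1 or 5 d replicate 3, 1 without 5 d replicate 2, 4 without uninjured replicate 3 and 5 without 5 d replicate 4. Of 9 lymphocyte markers 1 rose and 1 fell, or 2 without 5 d replicate 3.

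Antigen presentation rose as a whole. All 11 genes of MHC class II rose, with a median of 4.23 (4.15 with the 1 gene under the count floor at its bound), and 13 of 14 of class I, with a median of 1.63. Cd74, the class II invariant chain, had 45.3, 43.1, 11.8 and 12 CPM in uninjured and 420.2, 430.0, 457 and 525 CPM at 5 d. H2-Ab1 went from 10.5 to 211 CPM and H2-Aa from 7.98 to 142 CPM. The replicates 1 and 2 of the uninjured group were the high ones for Cd74, as they were for oligodendrocyte markers. In class I, B2m rose from 385 to 1124 CPM and H2-K1 from 217 to 533 CPM.

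Complement, chemokine and cytokine genes rose in part. Of 19 complement genes 12 rose and 2 fell, with a median of 1.30. Without 5 d replicate 4, 4 fell, and without uninjured replicate 2 the median was 1.91. C3ar1, the receptor for the C3a fragment, rose from 0.48 to 222 CPM (log2 8.83) and C1qa and C1qc from 9.59 to 1378 and from 6.98 to 1211 CPM, whereas C3 itself fell from 523 to 288 CPM (log2 -0.86) and C4b was not called (200.4 to 155 CPM). Of 17 CC chemokines 11 rose and 1 fell, and the median was 5.53; none fell without uninjured replicate 3, 5 d replicate 2 or 5 d replicate 3. Ccl2, which draws monocytes, went from 0.21 to 62.1 CPM, Ccl6 from 1.87 to 198 CPM and Ccl9 from 1.32 to 80.8 CPM. Of 13 CXC and CX3C chemokines 7 rose and Cxcl14 fell from 736 to 216 CPM, with a median of 3.43 for the list; without uninjured replicate 1, 2 fell. Pf4 rose from 0.92 to 231 CPM. Of 23 cytokines 15 rose and 3 fell, with a median of 2.78, or 1.88 with the 5 under the count floor at their bound. Tnf was at least 52.5-fold higher at 5 d but only at 1.57 CPM, and Il1rn, the interleukin 1 antagonist, went from 0.10 to 34 CPM. Il33, Il18 and Tgfb2 fell by 0.95, 1.25 and 1.48.

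Pattern receptors of the toll and inflammasome list rose in 16 of 18 cases, with a median of 4.07, led by Tlr13 (0.53 to 104 CPM). Tlr3, the receptor for double-stranded RNA, fell from 102 to 27.9 CPM. Of 26 interferon-stimulated genes 12 rose and none fell, with a median of 1.08, and the number that rose lay between 9 and 18 over the alternative settings. Oas1a rose the most (0.45 to 15.1 CPM) and Bst2 reached 120.0 CPM, while Ifit1, Ifit2, Ifit3, Ifih1 and Igtp had log2 fold changes between -0.47 and 0.33 and were not called.

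**Figure D2:**
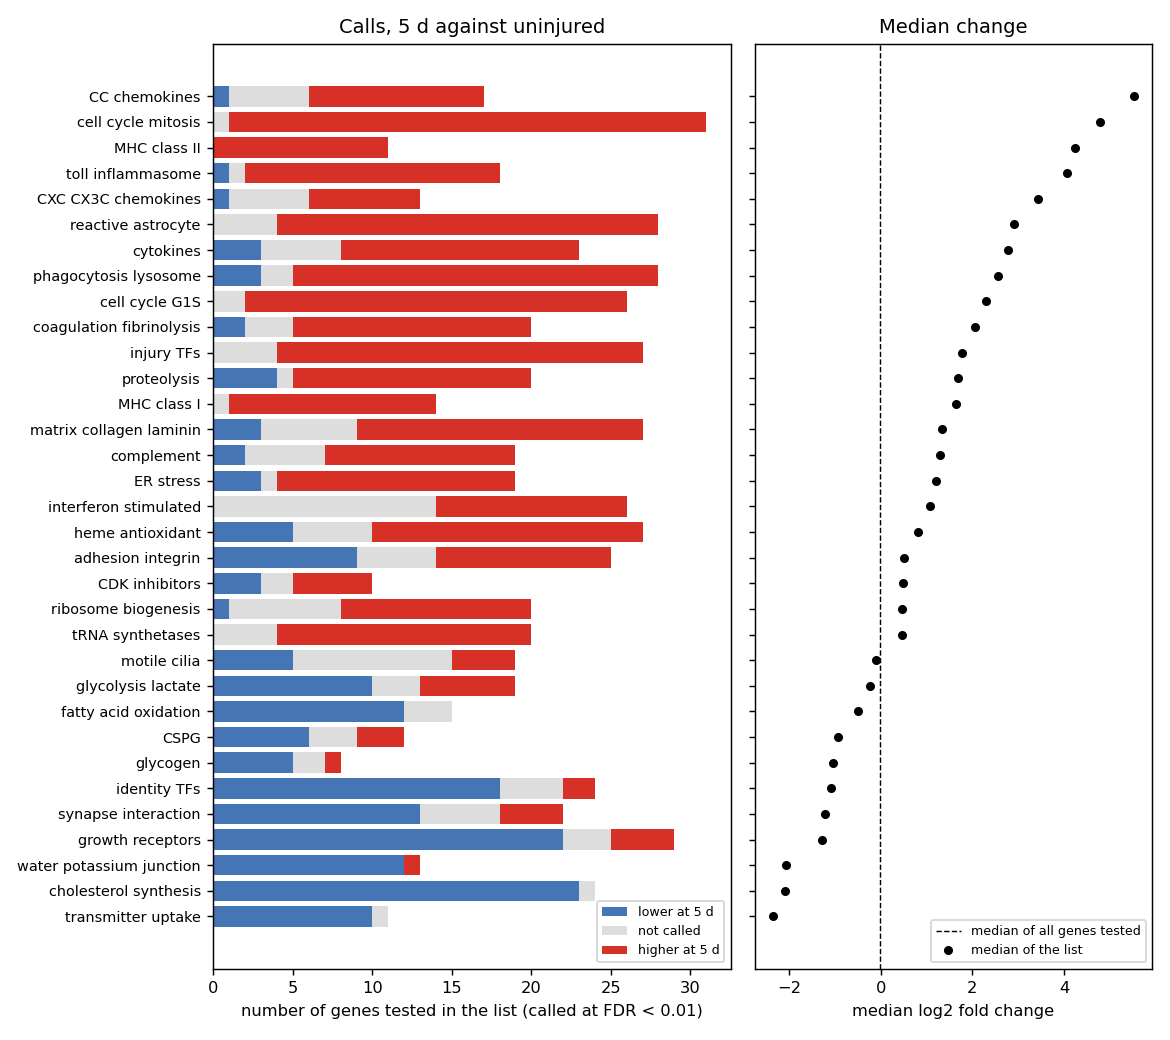
Left, genes of 33 functional lists tested at 5 d against uninjured, as the number lower, not called and higher (FDR < 0.01); right, the median log2 fold change of each list, with the median of all genes tested as a dashed line. Transmitter uptake, cholesterol synthesis and the water, potassium and junction list lay lowest, with medians from -2.36 to -2.07, and CC chemokines (5.53) and mitosis (4.79) highest.

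Matrix and wound genes rose, and stromal markers were present. Of 27 collagen, laminin and other matrix genes 18 rose and 3 fell, with a median of 1.34. Fn1, the fibronectin gene, rose the most (28.2 to 546 CPM, log2 4.27), Tnc from 25.7 to 133 CPM and Col1a1 from 85.2 to 448 CPM. Vtn fell from 136 to 40.4 CPM. Of 7 stromal and pericyte markers 2 rose and 1 fell (none without uninjured replicate 2), and their sum went from 344.4 to 747.5 CPM in uninjured to 936 to 1025.9 CPM in 5 d astrocyte libraries, against 3922.5 to 4659.2 CPM in the 5 d flow-through. Of 12 genes for chondroitin sulfate proteoglycans and the enzymes that make them, which are known to restrict axon growth, 6 fell and 3 rose, with a median of -0.94: Bcan went from 2106 to 182 CPM (log2 -3.53), Ncan was not called (302 to 373 CPM) and Vcan and Cspg4 rose (log2 2.58 and 1.59).

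Proteases and their inhibitors rose in 15 of 20 cases and fell in 4, with a median of 1.68. Adam8, a protease of leukocytes, led with 1.63, 0.874, 0.462 and 0.393 CPM in uninjured and 424, 507, 480.3 and 378 CPM at 5 d (log2 9.05 ± 0.64). Among the inhibitors Timp1 and Timp2 rose by 6.13 and 2.18 while Timp3 and Timp4 fell by 1.05 and 1.44. In the coagulation and fibrinolysis list 15 of 20 rose and 2 fell, with a median of 2.06; 1 fell without 5 d replicate 1 or 5 d replicate 3. F7, the factor that starts the extrinsic pathway, read 0.0581, 0.019, 0.0544 and 0.0231 CPM and then 84.1, 97.5, 97.5 and 74.7 CPM. The pathway's cell surface trigger, F3, and the protease inhibitor Serpine2 fell, by 0.38 and 0.97.

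Heme and antioxidant genes rose in 17 of 27 cases and fell in 5, with a median of 0.82. The ferritin genes Ftl1 and Fth1 went from 44.8 to 1859.8 CPM and from 956 to 3632 CPM, and Slc40a1, the iron exporter, from 1.35 to 19.8 CPM. Mt1 and Mt3 were not called, and Sod2, Sod3 and Cat fell by 0.98, 1.06 and 0.65. Chaperones and effectors of endoplasmic reticulum stress rose in 15 of 19 cases and fell in 3, with a median of 1.21. Trib3 rose the most (0.15 to 5.51 CPM) and Hspa5, the BiP chaperone gene, from 288 to 711 CPM, while Ddit3, or CHOP, was not called (21.3 to 24.5 CPM).

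What set 5 d apart from its neighbours in time was asked by testing it against 2 d (n = 5) and against 14 d (n = 4) in the same fit. The uninjured libraries enter these tests through the shared scaling, filter and spread. At 5 d 697 genes, 3.83% of those tested, were higher than at both times, and 502, 2.76%, were lower than at both; 19.6% were lower than at 2 d. Of the mitosis list 30 of 31 were higher at 5 d than at both, and of the G1 to S list 13 of 26 were higher and 1 was lower. Among the 8 genes of at least 1 CPM with the largest differences, Aspm, Ccnb1, Pif1, Ube2c, Pbk and Plk1 are genes of dividing cells, Marco is a scavenger receptor of macrophages and Gal codes for the neuropeptide galanin. Ccnb1, the mitotic cyclin, stood at 0.24 CPM in uninjured, 1.62 at 2 d, 18.2 at 5 d and 1.3 CPM at 14 d. Plk1, a kinase of mitosis, stood at 0.74, 3.49, 36.3 and 3.1 CPM. Marco had 61.3, 26.5, 60.3 and 46.6 CPM at 5 d and means of 0.15, 0.25 and 0.31 CPM in uninjured, at 2 d and at 14 d. Its 5 d libraries all lay far above those of both neighbouring times, which its choice by the largest differences favoured. Gal stood at 0.325, 2.09, 22.7 and 0.691 CPM.

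Of the 8 genes with the largest differences the other way, Slc6a20a, Birc7, Slc9a2 and Galnt15 were lower at 5 d than in uninjured as well, and Birc7, an inhibitor of apoptosis, read 0.221, 0.121, 0.374 and 0.222 CPM at 5 d against 4.06 CPM in uninjured. Uninjured levels of Slc6a20a spread widely (19.9, 46.9, 6.94 and 4.16 CPM). Lcn2, the lipocalin known as a marker of reactive astrocytes, stood at 12.9 CPM in uninjured, 146 at 2 d, 41.5 at 5 d and 376 CPM at 14 d. The interferon-stimulated genes Ifi44 and Ifit3 and the gliomedin gene Gldn were lower at 5 d than at both times and did not differ from uninjured at FDR below 0.01. Ifit3 stood at 27.7, 67.3, 20 and 82.7 CPM.

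The comparisons of 2 d, 5 d and 14 d with uninjured share their controls, so values are given side by side. Cholesterol genes had median log2 fold changes of -0.20 at 2 d, -2.09 at 5 d and -2.30 at 14 d. Transmitter uptake stood at -2.33, -2.36 and -1.85, reactive genes at 3.54, 2.91 and 2.89, mitosis at 2.19, 4.79 and 1.62, class II at 2.63, 4.23 and 4.55, and phagocytosis at 0.93, 2.57 and 2.22. Apoe had means of 17308 CPM in uninjured, 4728 at 2 d, 33185 at 5 d and 63641 CPM at 14 d. Spp1 had means of 85.1, 3675, 22304 and 905 CPM, and Hmox1 of 14.2, 2104, 2743 and 174 CPM.

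**Figure D3:**
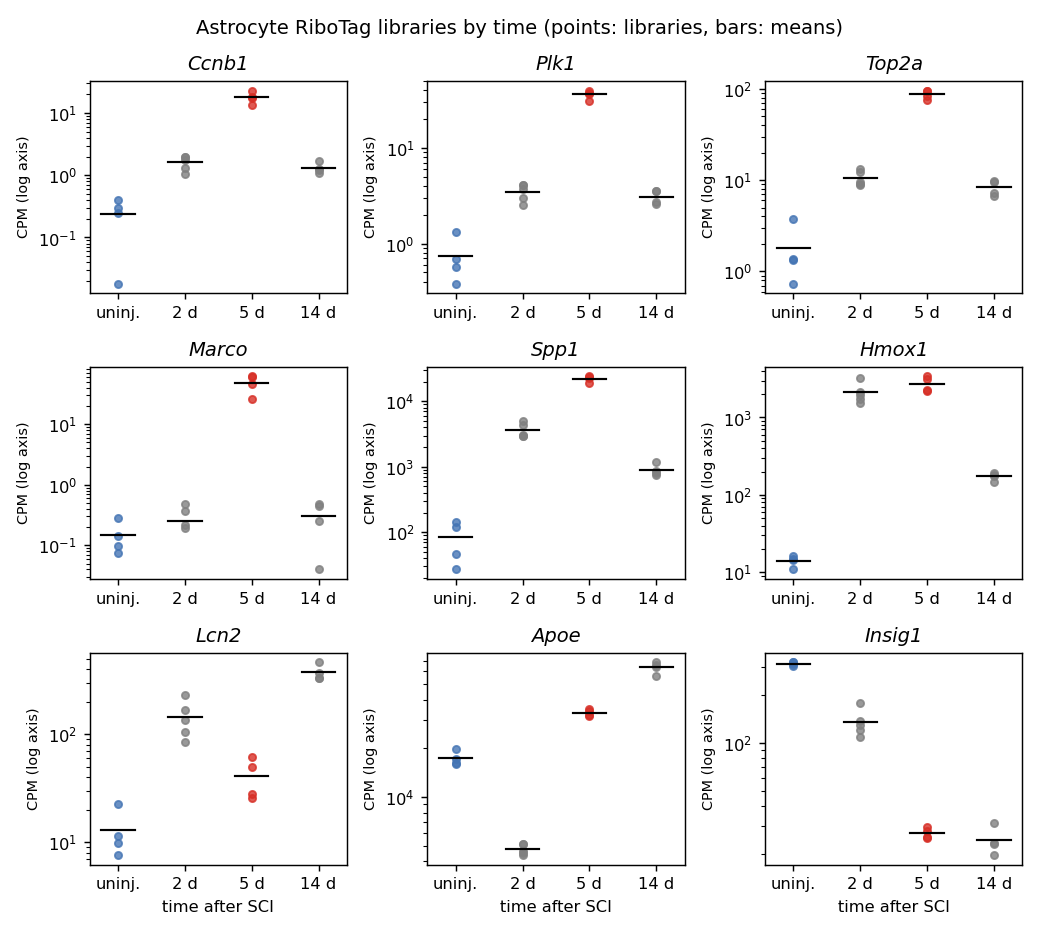
CPM on a log axis in astrocyte libraries of uninjured cord (n = 4) and at 2 d (n = 5), 5 d (n = 4) and 14 d (n = 4) after SCI for 9 genes; points are libraries and bars are means. Ccnb1, Plk1, Top2a, Marco and Spp1 were highest at 5 d, Lcn2 and Apoe at 14 d.

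Whether the changes belonged to the pulldown was asked with the flow-through libraries. The difference of the 5 d change between the 2 kinds of library was tested in one fit of 16. That fit did not pair the libraries that shared a group and number, and it called 7105 genes. With a block by animal 8252 were called. Of 18613 genes tested, 23.5% changed more upwards in the astrocyte libraries and 14.7% more downwards. In the flow-through itself 28.3% were higher at 5 d and 33.5% lower. Falls of the astrocyte lists and of cholesterol synthesis were larger in the pulldown. The change was more negative there for 10 of 12 astrocyte markers and 10 of 11 transmitter genes. The same held for 11 of 13 water and potassium genes and 20 of 24 cholesterol genes. In the flow-through 5, 8, 4 and 21 members of these lists fell and 3, 0, 2 and 1 rose. Their medians there were -0.17, -0.85, -0.05 and -1.03. Slc13a5 went opposite ways, falling by 4.41 in the astrocyte libraries with a change of 0.84 in the flow-through (difference -5.21, edgeR adjusted p = 1.45e-11). For Kcnj10 the flow-through change was -0.03. Neuronal markers fell in both kinds of library, with medians of -2.44 and -2.69, and for 2 of 10 the change was more positive in the astrocyte libraries.

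Immune lists were set beside all genes tested, of which 23.5% changed more upwards in the astrocyte libraries and 14.7% more downwards. All 10 leukocyte, 7 of 12 macrophage and 6 of 8 microglia markers had a more positive change in the astrocyte libraries. So had 10 of 11 class II genes. Interferon-stimulated genes had 0 more positive and 4 more negative changes of 26 there, the latter near the share of all genes. Their medians were 1.08 in the astrocyte and 1.68 in the flow-through libraries. Class I had 3 and 3 of 14, complement 6 and 4 of 19, and the phagocytosis and lysosome list 10 and 11 of 28. Medians for that last list were 2.57 in the astrocyte and 2.74 in the flow-through libraries. In the same order they were 2.06 and 2.46 for coagulation, 1.68 and 2.12 for proteases and 0.82 and 1.23 for heme genes. Pattern receptors (4.07 and 3.12), injury factors (1.78 and 1.65) and endoplasmic reticulum stress genes (1.21 and 1.08) had the higher median in the astrocyte libraries. Medians for class II were 4.23 in the astrocyte and 0.06 in the flow-through libraries, and Cd74 changed by 4.03 and -0.22. Ctss rose by 8.42 and by 2.75 (difference 5.70), the largest gap among the 10 leading genes, while for Hmox1 no difference was detected (7.59 and 7.52, adjusted p = 0.75). Matrix genes went the other way: 17 of 27 had a more negative change in the astrocyte libraries, and the medians were 1.34 and 2.77. Mitosis differed for 9 of 31, with 8 more positive and 1 more negative in the astrocyte libraries. The reactive list rose in both kinds of library, with medians of 2.91 in the astrocyte and 3.17 in the flow-through libraries. Its change was more positive in the astrocyte libraries for 7 of 28 genes and more negative for 7. In level at 5 d the reactive list stood a median of 1.13 log2 units higher in the pulldown than in the flow-through, Gfap 3.22, Gpnmb 2.84, Cd68 0.48 and Trem2 0.22.

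Males at 5 d, 4 further astrocyte libraries, were compared with the 4 females. Of 17037 genes tested 5 were called, 0.0293%, and 364 had an unadjusted p below 0.05. The Y-linked genes Kdm5d, Uty, Ddx3y and Eif2s3y were higher in males and Xist, the transcript of the inactive X chromosome, was lower. None of the leading genes was called. Gpnmb averaged 5003 CPM in males and 6559.7 CPM in females, Spp1 19963 and 22304 CPM, Top2a 89.9 and 87.2 CPM and Slc1a2 1704 and 1924 CPM. Male means were scaled together with the 29 female libraries of the time course, and female means without the males. There were no uninjured males among the libraries used here.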

How the data were processed

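The authors used Trimmomatic for trimming, HISAT2 for alignment (mm10) and featureCounts for counting per gene on the Galaxy server. The deposited values are raw counts for 27179 gene identifiers, 1 library per file. Of low counts (1 to 10), 66.4% to 73.3% per library were even, as when both mates of a pair are counted. Symbols came from RefSeq (25275) or GENCODE (18), and 1886 identifiers had no name.

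Counts were fitted with edgeR 4.0.16 (R 4.3.3; limma 3.58.1) by the quasi-likelihood test after TMM scaling and filterByExpr. The 29 female astrocyte libraries of 7 times were fitted together, so that they shared one spread, with Benjamini-Hochberg adjustment over all genes and FDR < 0.01. Flow-through (16 libraries) and males (8 libraries) had fits of their own. Scripts were tested on simulated data. CPM are per effective library size. A count of 3 per library served as floor, and it covers counting error only.

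Named genes were the 10 largest rises and 10 largest falls with at least 1 CPM in both groups and ranges apart, the 6 highest at 5 d among those at or under the floor in uninjured, the 5 largest gains and losses in CPM, the extreme and most abundant members of each list with defining members, and 8 genes each way at 5 d against both neighbouring times. The 14 marker lists and 33 functional lists, and the comparison itself, were chosen with earlier results of these data known. Hbb-bt, Otx1, Ccl20, Cxcl13 and Csf3 were listed but not tested, and some genes that the rule names are not reported here. Alternatives were other scalings, filters, thresholds and fits, DESeq2 1.42.0, a replicate block and each library left out.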

Additional observations from a re-analysis of the deposited data

Results flagged for a closer look

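In 9 of 97 groups of 4 libraries 1 library stood apart from the other 3, by the gap to its nearest neighbour as a share of the group's range (Dixon's test); chance gives about 1 in 20. All 9 were uninjured groups. For Mcoln3, Osm, Ccl4, Raet1d and Phf11b the share was 1, because a single library held 2 or 3 counts and the others none. It was 0.862 for Aspm, 0.841 for Gal, 0.86 for Ifi44 and 0.948 for Gldn.

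For 22 of 27 genes compared, the log2 change at 5 d differed between astrocyte and flow-through libraries (edgeR interaction, FDR < 0.01). Of all 18613 genes tested, 23.5% changed more upwards in the astrocyte libraries and 14.7% more downwards. The 27 genes had been chosen for the largest changes in the astrocyte libraries, so a larger change there was favoured by the choice. It was more positive in the astrocyte libraries by 1.42 for Gpnmb, 2.66 for Cd68, 5.70 for Ctss, 3.70 for Trem2, 3.00 for Lyz2, 2.20 for Spp1, 3.23 for Stab1, 3.91 for C1qb, 3.58 for Mpeg1 and 0.42 for Ctsb. Among genes that fell, the difference was -3.23 for Hsd11b1, -2.34 for Unc13a, -3.17 for Cdr1, -5.21 for Slc13a5, -3.53 for Itih3, -2.77 for ND5 and -2.84 for 2210416O15Rik. For genes abundant in astrocytes it was -1.24 for Sparcl1, -2.04 for Atp1b2, -2.03 for Slc1a2 and -1.02 for Aldoc. Apoe rose in both kinds of library and less in the astrocyte libraries, by -2.34. The part of other cells in these differences was not tested.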

How the results depend on the processing

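The numbers of genes higher and lower at 5 d stayed within 1.5 times their values under other scalings, filters, fits and DESeq2. Asking for a 2-fold change as well left 5811 genes, 3132 higher and 2679 lower. At FDR < 0.05, 1053 genes were higher and 876 lower at 5 d than at both 2 d and 14 d. DESeq2 called 12 genes between males and females. With each library left out in turn, 9643 to 10031 genes changed, 4931 to 5060 higher and 4702 to 4976 lower; 535 to 687 were higher and 344 to 498 lower than at both times; and 4 to 6 differed between the sexes. Without the 5 d flow-through replicate 4, 6727 genes changed differently from the flow-through. Upper-quartile scaling moved the median of all genes the most, to -0.07, and 47.65% of calls were then higher against 50.54%. Libraries that shared a number did not deviate together (correlations -0.10, 0.02, -0.09 and 0.00); with a replicate block 5137 genes were higher and 4996 lower, 602 and 420 against both times, and with a block by animal 8252 differed from the flow-through. Of 627 pairs of a named gene and an alternative, 626 kept direction and side of the threshold. Apoe, at 0.94, missed the 2-fold limit. The genes in these pairs had been chosen for large changes in fold or in CPM, so stability was favoured by the choice. The number of interferon-stimulated genes that rose ran from 9 to 18. Depth limits genes near the floor of 3 counts.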

Other observations

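Genes of protein synthesis rose modestly. Of 20 aminoacyl-tRNA synthetase genes, which charge tRNAs, 16 rose at 5 d and none fell, with a median log2 fold change of 0.46. Rars rose the most, from 28.9 to 70.7 CPM (log2 1.29). In the flow-through 8 rose and 8 fell, where 28.3% of all genes were higher and 33.5% lower, and the change was more positive in the astrocyte libraries for 12. Of 20 ribosome biogenesis genes 12 rose and 1 fell, with a median of 0.46. Npm1, a nucleolar chaperone, went from 84.1 to 192.2 CPM. Both lists were lower at 5 d than at 2 d for most members, 18 of 20 synthetases and 19 of 20 biogenesis genes, against 19.6% of all genes.

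Adhesion genes split. Of 25, 11 rose and 9 fell, with a median of 0.51. Itgb2, the leukocyte integrin chain, rose from 3.47 to 379.6 CPM and Cd9, a tetraspanin, from 165 to 825 CPM. Itgb8, an integrin chain of astrocytes, fell from 109.7 to 21.8 CPM, and the cadherin gene Cdh20 from 173 to 44.9 CPM. Of 19 motile cilium genes 4 rose and 5 fell, with a median of -0.11: Foxj1, their master regulator, had 67.8 and 72.7 CPM and was not called, and Rfx3 fell from 24.6 to 7.28 CPM.

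Markers of other cells, by the number of each list that rose and fell at 5 d, were as follows. Of 8 microglia markers 6 rose and 1 fell (median 3.19). Of 10 oligodendrocyte markers 7 fell (median -1.59), and of 5 Schwann cell markers 4 fell (median -2.58). Of 5 erythrocyte markers none was called, and 1 fell without uninjured replicate 2. Of 6 markers of oligodendrocyte precursors 2 rose and 2 fell, but 1 fell without uninjured replicate 1 or 2 or 5 d replicate 3 or 4. Of 7 endothelial markers 2 rose. Of 8 ependymal markers 1 rose and 1 fell, but 2 rose without uninjured replicate 1 or 2 or 5 d replicate 3, and none without 5 d replicate 4.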
